A study of Homo sapiens with 12 samples.

Results

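The genes described here encode the working parts of the lysosome: its hydrolases, its membrane proteins, 3 proteins that regulate or feed it, and the subunits of the vacuolar proton pump (V-ATPase) that acidifies it. A list of 32 lysosomal genes was joined with every gene entry whose name begins with ATP6V0 or ATP6V1. That prefix matched 24 entries, of which the pseudogene ATP6V0CP3 was left out. The set therefore holds 55 of the 23398 gene entries in the deposited table, 32 listed genes and 23 V-ATPase genes. Members were taken by gene name, but the list was drawn up with earlier results of these data known. The filter on low counts was passed by 52 members, which were tested.

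Lysosomes receive soluble hydrolases from the Golgi and cargo from endocytosis and autophagy, and their enzymes work at the acid pH that the V-ATPase maintains by pumping protons at the cost of ATP. The V-ATPase has a membrane sector, V0, through which protons pass, and a cytosolic sector, V1, which hydrolyses ATP and can detach from V0, a step that is known to respond to glucose in several cell types. Many lysosomal genes share a promoter element, CACGTG flanked by preferred bases, that is bound by TFEB and related factors, and mTORC1 at the lysosomal surface keeps TFEB in the cytoplasm when nutrients are plentiful. In brain endothelium, lysosomes also degrade receptors and cargo taken up at the blood-brain barrier.

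RNA came from purchased human endothelial cells of brain microvessels (HBMEC), which in life form the blood-brain barrier. Transfection lasted 48 h and used siGlut1, an siRNA against SLC2A1 (the gene of the glucose transporter Glut1), or non-silencing siRNA, with cells in control glucose or in high glucose of unstated concentration. The 4 groups were non-silencing control (3 libraries), siGlut1 control (3), non-silencing high (2) and siGlut1 high (3), all in the same cell type and all transfected. The labels do not say whether replicates were separate cultures, so each p-value reflects the spread among these samples alone, and that spread may be technical.

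Deposited counts totalled 40135082 to 90536476 per library with a median of 49686182. Every count in these libraries is even, and whether both reads of a pair were counted is not stated, so the number of fragments may be smaller than these totals. The column of non-silencing high 2 matches the average of columns 1 and 3 of that group in 23397 of 23398 entries, and it was left out. Both control-glucose libraries numbered 3 stood apart from their groups for many members, so glucose results are given with and without them. SLC2A1 stood at 25.7, 23.7 and 22.2 CPM (counts scaled to a common library total, with TMM factors) in non-silencing control 1, 2 and 3, and at 8.56, 9.05 and 6.26 CPM in siGlut1 control. In high glucose it stood at 21.2 and 20.7 CPM with non-silencing siRNA and at 7.08, 7.19 and 6.38 CPM with siGlut1. The groups did not overlap, and the log2 fold change was -1.58 in control and -1.61 in high glucose (adjusted p = 0.000898 and 0.000900, edgeR quasi-likelihood F test). All 10 endothelial markers examined were above 1 CPM, and PTPRC, AIF1, CSF1R, CX3CR1, ITGAM, TYROBP and P2RY12, 7 of 9 markers of microglia and other leukocytes, averaged under 0.1 CPM, with CD14 at 0.578 and CD68 at 51.5 CPM. The 9 pericyte and smooth muscle markers, nearly all RGS5 (mean 1904 CPM), summed to 1846 to 2170 CPM in non-silencing control and 1517 to 1623 in siGlut1 control, and to 2379 to 2443 and 1705 to 2044 CPM in high glucose. CSPG4, DES and KCNJ8 of that list averaged under 0.1 CPM. The 5 neuronal markers, mostly TUBB3, summed to 104.8 to 114.2 and 146.4 to 151.1 CPM in control glucose and to 77.0 to 91.3 and 107.5 to 134.3 CPM in high glucose. The 4 epithelial markers, mostly KRT18, summed to 275.6 to 289.4 and 253.5 to 274.8 CPM in control glucose. In high glucose they summed to 299.4 to 301.3 and 242.8 to 274.5 CPM. The pericyte, neuronal and epithelial sums thus differed between the siRNAs without overlap in each medium. With siGlut1 the neuronal sum was higher and the other sums lower, and the part of these cells or genes in the siRNA results below was not tested. The fibroblast and astrocyte sums overlapped between the siRNAs in both media.

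To show what the TFEB element looks like in this set, promoter windows of 250 bases before to 50 bases after the gene start were taken from RefSeq (GRCh38.p14). The table held 39 of the 55 members. Of the members that changed with siGlut1, CTSB, CTSS and ATP6V1B2 were not among them. The windows below hold CACGTG in capitals and were chosen because NEU1 and ATP6V1G1 changed with siGlut1, LAMP1 holds the most copies, and GAA and MCOLN1 carry, with ATP6V1G1, a longer palindrome, CACGTG with GT before it and AC after it. They are from LAMP1 (chr13:113297039-113297108, + strand), NEU1 (chr6:31862912-31862981, - strand), MCOLN1 (chr19:7522564-7522618, + strand), ATP6V1G1 (chr9:114587699-114587728, + strand) and GAA (chr17:80101493-80101522, + strand). All 5 lie before the gene start and overlap no exon of the reference annotation.
LAMP1: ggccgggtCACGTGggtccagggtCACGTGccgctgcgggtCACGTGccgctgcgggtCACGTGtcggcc
NEU1: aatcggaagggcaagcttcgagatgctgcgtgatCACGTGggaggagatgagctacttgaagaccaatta
MCOLN1: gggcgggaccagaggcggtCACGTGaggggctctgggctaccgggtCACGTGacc
ATP6V1G1: acgctgtgcggtCACGTGacaacgggggcg
GAA: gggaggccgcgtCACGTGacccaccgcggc

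CACGTG occurred, on either strand, in 12 of the 39 members (30.8%) and in 8.77% of 27305 genes with windows of the same length. The extended form TCACGTG, which contains CACGTG, occurred in 11 members (28.2%) and in 4.49% of genes. The palindrome, which contains both, occurred in 3 members (7.69%) and in 0.421% of genes. A form of the interferon response element, GAAA and GAAA with any 2 bases between them, occurred in 0 of the 39 members and in 4.38% of genes. The 12 members with CACGTG were LAMP1, CD63, MCOLN1, CTSA, CTSD, CTSF, NEU1, GAA, ATP6V0B, ATP6V0D1, ATP6V0E2 and ATP6V1G1. A match is a description of the letters in the window, not evidence of binding.

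The lysosomal genes were among the abundant transcripts of these cells. Compared per gene length, in RPKM (reads scaled to transcript length and library total, the authors' values), the median of the 52 tested members was 27.7 against 6.37 for all 14334 tested genes, and 21 members lay above the 90th percentile of all tested genes (45.5). PSAP, the precursor of the saposins that activate sphingolipid hydrolases, was highest at a mean of 658 RPKM over the 11 libraries. It was followed by CD63, a tetraspanin of late endosomes and lysosomes (444), CTSB, the cysteine protease cathepsin B (312), and GRN, the precursor of the granulins (254). SQSTM1, the autophagy receptor p62, stood at 199 RPKM, NPC2, a soluble cholesterol carrier, at 172, and ATP6V0E1, a small V0 subunit, at 173.

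Other hydrolases and membrane proteins filled a wide range below these. LAMP1, a major glycoprotein of the lysosomal membrane, stood at 144 RPKM, CTSD, the aspartic protease cathepsin D, at 132, CTSZ, a carboxypeptidase, at 128, and CTSA, a serine carboxypeptidase that protects NEU1 and GLB1, at 100.2. The sialidase NEU1 (45.7 RPKM) and the beta-galactosidase GLB1 (44.0) led the glycosidases. TFEB itself stood at 3.12 RPKM. Of the 55 members 11 reached a mean of 100 RPKM and 8 were under 1. The members together took 0.921% to 1.13% of all counts in a library.

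**Figure D1:**
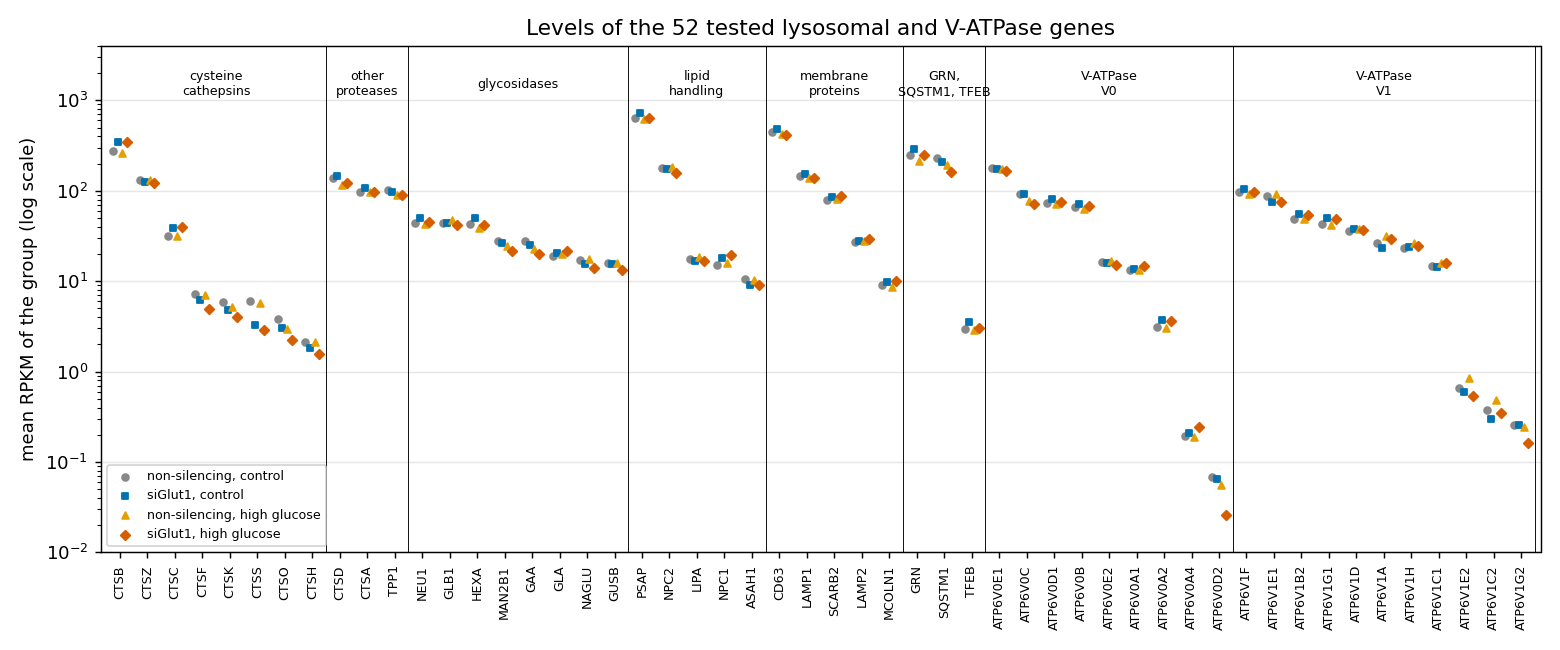
Mean RPKM of each group on a log axis for the 52 tested members, ordered by role and level, with 1 symbol per siRNA and medium. The 4 groups lie close together for most members, and CTSS (siGlut1 below non-silencing in both media) is the widest gap among members above 1 RPKM.

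For most V-ATPase subunits with several isoforms, 1 isoform gave nearly all of the RPKM. For subunit d, ATP6V0D1 gave 99.9% of the summed RPKM of its isoforms, for subunit B, ATP6V1B2 gave 99.99%, and for subunit E, ATP6V1E1 gave 99.2%. ATP6V1C1 gave 97.6% of subunit C, ATP6V1G1 99.5% of subunit G and ATP6V0E1 91.6% of subunit e. Subunit a was shared between ATP6V0A1 (43.2%) and TCIRG1 (45.4%, the a3 isoform, not a member by its name), with ATP6V0A2 at 10.8% and ATP6V0A4, the isoform known from kidney, at 0.669%. The kidney isoform ATP6V1B1 and ATP6V1G3 did not pass the filter, at up to 0.0765 and 0.0506 CPM, and the readthrough entry ATP6V1G2-DDX39B had 0 counts in all 11 libraries.

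Few lysosomal genes changed with siGlut1, and most of those past the threshold in the average over both media were higher. Of the 52 tested members 3 passed the threshold (adjusted p under 0.05, no fold minimum) in control glucose, 2 higher (3.85%, against 1.70% of all tested genes) and 1 lower (1.92% against 1.26%), which is 5.77% against 2.96%. In high glucose 4 passed, 2 higher (3.85% against 2.46%) and 2 lower (3.85% against 1.65%), in all 7.69% against 4.11%. Averaged over both media, 9 passed, 7 higher (13.5% against 7.93%) and 2 lower (3.85% against 6.49%), in all 17.3% against 14.4%, which is near the background. The median log2 fold change of the members was 0.04 in control glucose, 0.00 in high glucose and 0.00 in the average, against -0.01, 0.00 and 0.00 over all tested genes. In bulk RNA fewer cells of a type and less RNA per cell cannot be told apart, here or in any result below.

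Among the 8 cysteine cathepsins, CTSB and CTSC rose and CTSS fell. CTSB, cathepsin B, a broad endolysosomal protease, stood at 1190, 1204 and 1080 CPM in non-silencing control and at 1568, 1471 and 1399 CPM in siGlut1 control. The values in high glucose were 1140 and 1049 CPM with non-silencing siRNA and 1501, 1448 and 1453 CPM with siGlut1. All 6 siGlut1 libraries lay above all 5 non-silencing libraries. The fold was 1.28 in control glucose (log2 0.35, SE 0.07, adjusted p = 0.0218, edgeR) and 1.34 in high glucose (log2 0.42, SE 0.08, adjusted p = 0.0160), and the average log2 fold change was 0.39 (adjusted p = 0.000971).

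CTSC (hg19 chr11:88026760-88070941), the dipeptidyl peptidase that activates granule serine proteases, stood at 252, 243 and 272 CPM in non-silencing control and at 318, 330 and 296 CPM in siGlut1 control. Under high glucose the level was 257 and 251 CPM with non-silencing siRNA and 333, 304 and 320 CPM with siGlut1. Again no siGlut1 library overlapped a non-silencing one. The log2 fold change was 0.30 in control glucose (SE 0.07, adjusted p = 0.0402, edgeR), 0.33 in high glucose (SE 0.08, adjusted p = 0.0385) and 0.31 in the average (adjusted p = 0.00280).

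CTSS (hg19 chr1:150702672-150738433), cathepsin S, a protease that keeps activity at neutral pH and is best known from antigen presentation, showed the widest difference of any member past the threshold. It stood at 22.5, 24.0 and 31.0 CPM in non-silencing control and at 12.1, 12.4 and 18.7 CPM in siGlut1 control. In high glucose it stood at 28.6 and 20.9 CPM with non-silencing siRNA and at 14.4, 13.7 and 10.2 CPM with siGlut1. The groups did not overlap in either medium, although siGlut1 control 3 lay well above the other siGlut1 libraries. The level was 1.80-fold lower in control glucose (log2 -0.85, SE 0.20, adjusted p = 0.0485, edgeR) and 1.94-fold lower in high glucose (log2 -0.96, SE 0.22, adjusted p = 0.0377), with an average log2 fold change of -0.90 (adjusted p = 0.00311). CTSS is abundant in macrophages. The 9 leukocyte and microglia markers summed to 39.4 to 58.6 CPM in non-silencing control and 47.9 to 73.7 CPM in siGlut1 control, and to 46.1 to 49.2 and 49.0 to 61.1 CPM in high glucose. Nearly all of that sum was CD68 (mean 51.5 CPM). CD14 averaged 0.578, CSF1R 0.0801 and PTPRC 0.0330 CPM. AIF1, CX3CR1 and ITGAM averaged 0.00395, 0.00433 and 0.00819 CPM, and TYROBP and P2RY12 were at 0 in all libraries. A part of such cells in the CTSS result was not tested.

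The other 5 cysteine cathepsins (CTSF, CTSH, CTSK, CTSO and CTSZ) had average log2 fold changes of -0.34 to -0.07, and none passed the threshold. The calls of CTSB, CTSC and CTSS in the average held in all 8 other settings tried and without each of the 11 libraries in turn, with adjusted p at most 0.0102, 0.0214 and 0.0217. Within 1 medium the calls were fragile. CTSB in control glucose was lost without non-silencing control 1, siGlut1 control 1 or siGlut1 control 2 (adjusted p up to 0.121 over all settings), and CTSC and CTSS in control glucose were each lost in 10 of the 11 leave-outs (adjusted p up to 0.166 and 0.163). In high glucose the calls of CTSB, CTSC and CTSS were lost in 4, 7 and 6 leave-outs (adjusted p up to 0.173, 0.241 and 0.275), each without non-silencing high 1 or 3 among others.

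**Figure D2:**
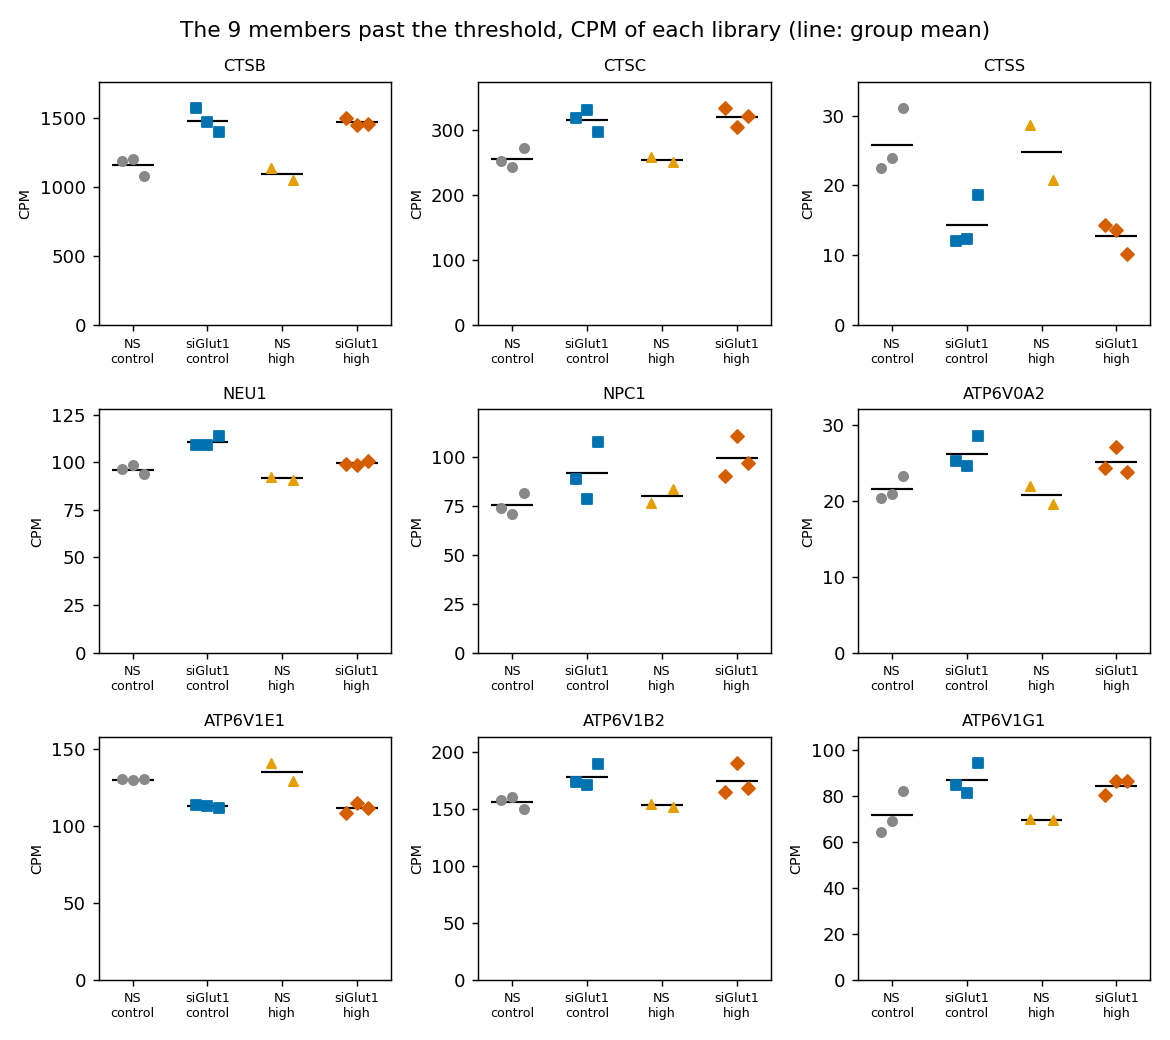
CPM of each library (points) and group mean (line) for the 9 members past the threshold in at least 1 siRNA comparison, each panel on its own axis from 0. CTSB and CTSC lie higher and CTSS and ATP6V1E1 lower in all 6 siGlut1 libraries than in all 5 non-silencing libraries, whereas NPC1 and ATP6V1G1 overlap.

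No aspartic or serine protease passed the threshold. CTSD stood at 251 to 351 CPM in non-silencing control and 283 to 373 CPM in siGlut1 control, with an average log2 fold change of 0.09 (SE 0.09, adjusted p = 0.574, edgeR). CTSA had 0.10 (adjusted p = 0.388) and the tripeptidyl peptidase TPP1 0.00 (adjusted p = 0.999). CTSA shares sequence positions with PLTP, CTSD with MOB2, NPC1 with C18orf8 (mean 25.4 CPM) and SQSTM1 with MGAT4B (mean 211 CPM, average log2 fold change -0.28, adjusted p = 0.0922). Since the use of strand in counting is not given, reads of such pairs cannot be told apart.

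Of the 8 glycosidases 1 rose in the average, where 7.93% of all tested genes rose, and none passed within 1 medium. NEU1 (hg19 chr6:31826829-31830709), which removes terminal sialic acids, stood at 96.4, 98.3 and 93.6 CPM in non-silencing control and at 108.9, 109.2 and 114.0 CPM in siGlut1 control. In high glucose the values were 92.3 and 90.7 CPM with non-silencing siRNA and 99.1, 98.5 and 100.7 CPM with siGlut1. All 6 siGlut1 libraries were higher than all 5 non-silencing libraries, by a small step, with an average log2 fold change of 0.16 (SE 0.04, adjusted p = 0.0239, edgeR). The other 7 glycosidases ranged from -0.20 (NAGLU, adjusted p = 0.334) to 0.17 (HEXA, adjusted p = 0.285). The direction of NAGLU in control glucose (-0.11) turned without non-silencing control 2 (0.01) or siGlut1 control 3 (0.03).

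Among the 5 genes of lipid handling, NPC1 rose in the average. NPC1, the membrane protein that exports cholesterol from lysosomes, stood at 74.1, 70.9 and 82.0 CPM in non-silencing control and at 88.7, 78.7 and 108.1 CPM in siGlut1 control. The values in high glucose were 76.8 and 83.6 CPM with non-silencing siRNA and 90.6, 111.2 and 97.3 CPM with siGlut1. The groups overlapped in control glucose and not in high glucose. In high glucose the siRNAs did not overlap for 44.5% of all tested genes and 42.3% of the members. The average log2 fold change of NPC1 was 0.30 (SE 0.09, adjusted p = 0.0433, edgeR). The call was lost in 8 of 11 leave-outs and when the trend with gene length was removed (adjusted p up to 0.161). Its soluble partner NPC2 had an average of -0.12 (adjusted p = 0.323), PSAP 0.13 (0.332), the acid lipase LIPA -0.08 (0.513) and the acid ceramidase ASAH1 -0.18 (0.183).

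Positive average log2 fold changes were found for 26 of all 52 tested members and 7039 of all 14334 tested genes. All 5 membrane proteins had positive values, of 0.06 to 0.20, and none passed the threshold. MCOLN1, the calcium channel TRPML1, had the largest, at 0.20 (SE 0.07, adjusted p = 0.0842, edgeR), from 18.4 to 21.3 CPM in non-silencing control, 20.4 to 25.0 in siGlut1 control, 17.8 and 19.7 in non-silencing high and 21.6 to 23.2 in siGlut1 high. LAMP1 had 0.06, CD63 0.06, LAMP2 0.09 and SCARB2, a membrane protein that takes part in sorting to lysosomes, 0.14. Of the regulators, GRN had 0.24 (adjusted p = 0.0878), SQSTM1 -0.18 (adjusted p = 0.0751) and TFEB 0.19 (adjusted p = 0.339). GRN stood at 614, 694 and 505 CPM in non-silencing control and at 715, 808 and 630 CPM in siGlut1 control, so these 2 groups overlapped. In high glucose it stood at 516.3 and 516.0 CPM with non-silencing siRNA and at 640.6, 572.3 and 605.8 CPM with siGlut1. These did not overlap, as was so for 44.5% of all tested genes.

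Of the 20 tested V-ATPase genes 3 rose and 1 fell with siGlut1 in the average. Of all tested genes 7.93% rose and 6.49% fell. Calls this few describe the genes named and not the pump. Among the 9 tested V0 genes ATP6V0A2, an a subunit linked to Golgi and endosomes, rose in the average. It stood at 20.3, 20.8 and 23.3 CPM in non-silencing control and 25.2, 24.5 and 28.6 CPM in siGlut1 control, and at 21.9 and 19.5 against 24.3, 27.1 and 23.8 CPM in high glucose. The libraries of both siRNAs did not overlap, with an average log2 fold change of 0.28 (SE 0.07, adjusted p = 0.0237, edgeR). The main d isoform ATP6V0D1 was also higher in every siGlut1 library, at 131 to 149 CPM against 123 to 130 CPM, with an average of 0.14 that missed the threshold (adjusted p = 0.0527). The proteolipid ATP6V0C had -0.03 (adjusted p = 0.855) and ATP6V0E1 -0.03 (0.670).

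Of the 11 tested V1 genes 2 rose and 1 fell in the average, where 7.93% of all tested genes rose and 6.49% fell. ATP6V1E1 (hg19 chr22:18074903-18111588), a subunit of the peripheral stalks that hold V1 to V0, stood at 130.6, 129.8 and 130.6 CPM in non-silencing control and at 113.6, 113.0 and 112.0 CPM in siGlut1 control. Under high glucose the level was 141.3 and 129.7 CPM with non-silencing siRNA and 108.6, 115.1 and 111.6 CPM with siGlut1. The replicates lay close together and the siRNAs did not overlap. The log2 fold change was -0.21 in control glucose (adjusted p = 0.0774, edgeR), -0.28 in high glucose (adjusted p = 0.0355) and -0.24 in the average (SE 0.04, adjusted p = 0.00417). The average held in all 8 other settings and all 11 leave-outs (adjusted p at most 0.0318), while the call in high glucose was lost in 8 leave-outs, each removing non-silencing control 1, siGlut1 control 1 or 2, or any high-glucose library, and in 3 of 9 other settings (adjusted p up to 0.281).

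ATP6V1G1, the partner of E in those stalks, stood at 64.6, 69.1 and 82.1 CPM in non-silencing control and at 85.03, 81.2 and 94.5 CPM in siGlut1 control. In high glucose it stood at 69.9 and 69.6 CPM with non-silencing siRNA and at 80.3, 86.5 and 86.7 CPM with siGlut1. The siRNAs overlapped in control glucose, at 82.1 CPM in non-silencing control 3 against 81.2 CPM in siGlut1 control 2. The average log2 fold change of ATP6V1G1 was 0.27 (SE 0.07, adjusted p = 0.0227, edgeR), opposite in sign to that of ATP6V1E1. ATP6V1B2, the B subunit of the catalytic head, stood at 157.5, 160.3 and 149.4 CPM in non-silencing control and 173.4, 171.1 and 189.4 CPM in siGlut1 control, and at 154.5 and 151.7 against 164.4, 190.4 and 167.8 CPM in high glucose. Its average was 0.19 (SE 0.05, adjusted p = 0.0394), and the call was lost in 10 of 11 leave-outs and in 2 of 8 other settings, including that without both control libraries numbered 3 (adjusted p up to 0.132). The catalytic subunit ATP6V1A had -0.12 (adjusted p = 0.191) and the regulatory subunit ATP6V1H -0.01 (0.960). The largest V1 value was that of the minor C isoform ATP6V1C2 (-0.41, adjusted p = 0.127), at 0.867 to 1.71 CPM, whose position overlaps the abundant gene PDIA6 (mean 558 CPM).

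**Figure D3:**
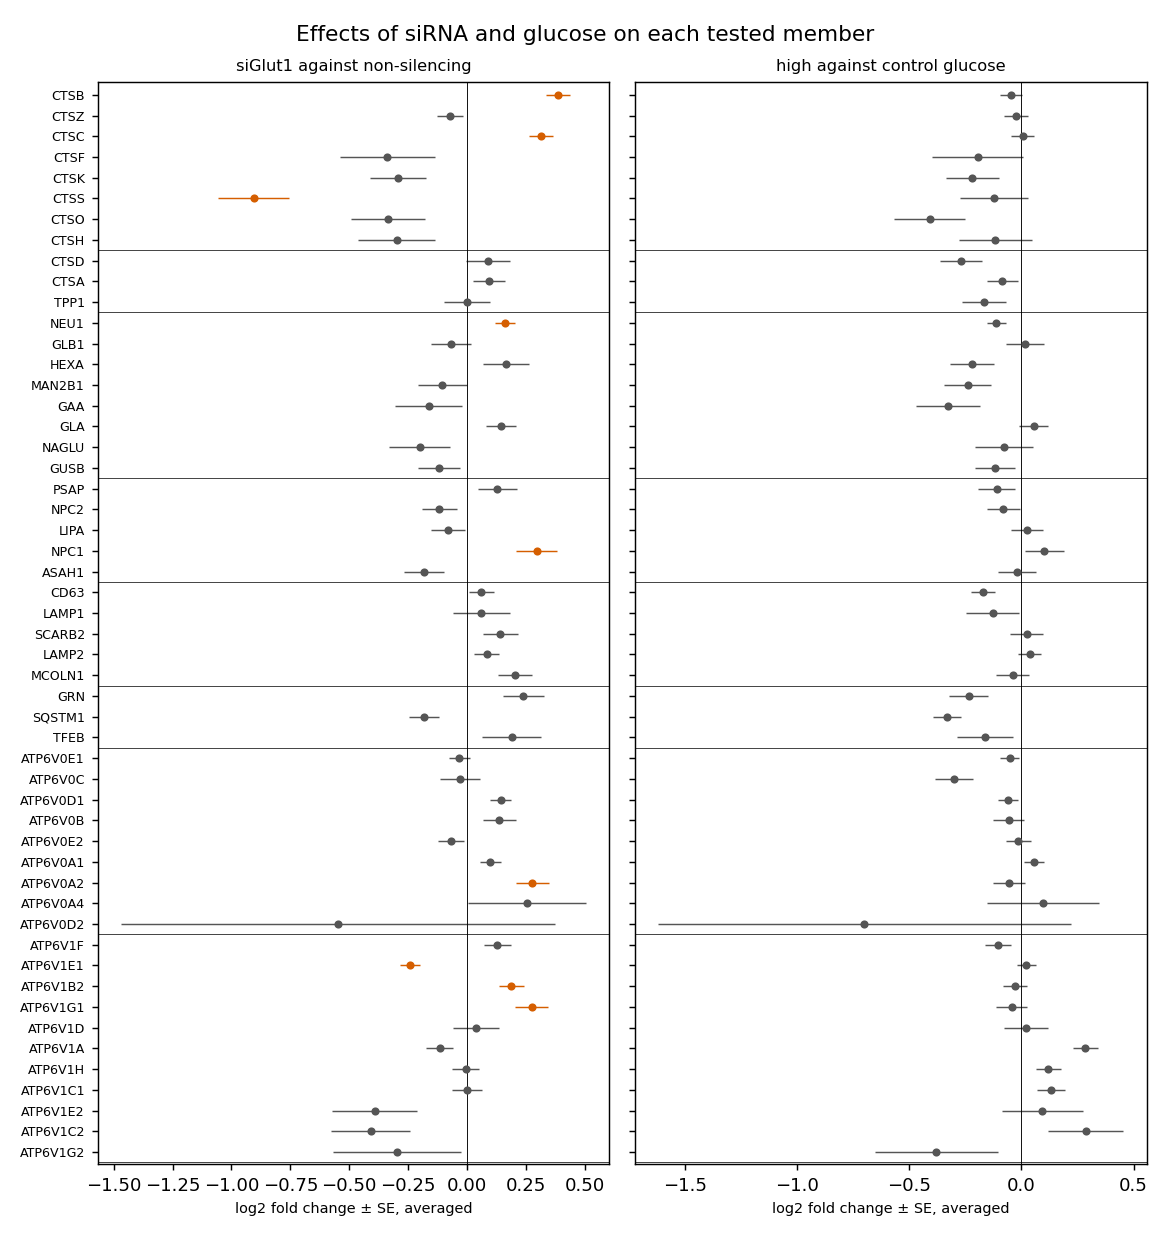
Average log2 fold change with its SE (11 libraries) for the 52 tested members, siGlut1 against non-silencing on the left and high against control glucose on the right, each with its own axis. Orange marks the 9 members past the threshold, all in the left panel, and ATP6V0D2 has the widest error.

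The log2 fold changes with siGlut1 were similar in both media. The comparisons in control and in high glucose share no library, so their values were set side by side over the 49 members with a mean of at least 1 CPM. The log2 fold changes had Pearson's r of 0.917 and Spearman's rho of 0.899, and 44 of 49 had the same sign. Over the 12157 genes at that level, members included, r was 0.757 and rho 0.684, with the same sign for 9142. These correlations run across genes, which are not independent replicates, and carry no test. The interaction of siRNA and glucose was past the threshold for 0 of 52 members and 0.0% of all genes by edgeR, with 0 members at an unadjusted p under 0.05 against 2.75% of genes, and for 0 members and 0.0% of genes by DESeq2. Across all 11 libraries 8 members (15.4%) separated the siRNAs without overlap, 6 higher (11.5% against 4.84%) and 2 lower (3.85% against 3.85%), where 8.69% of all tested genes did so.

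**Figure D4:**
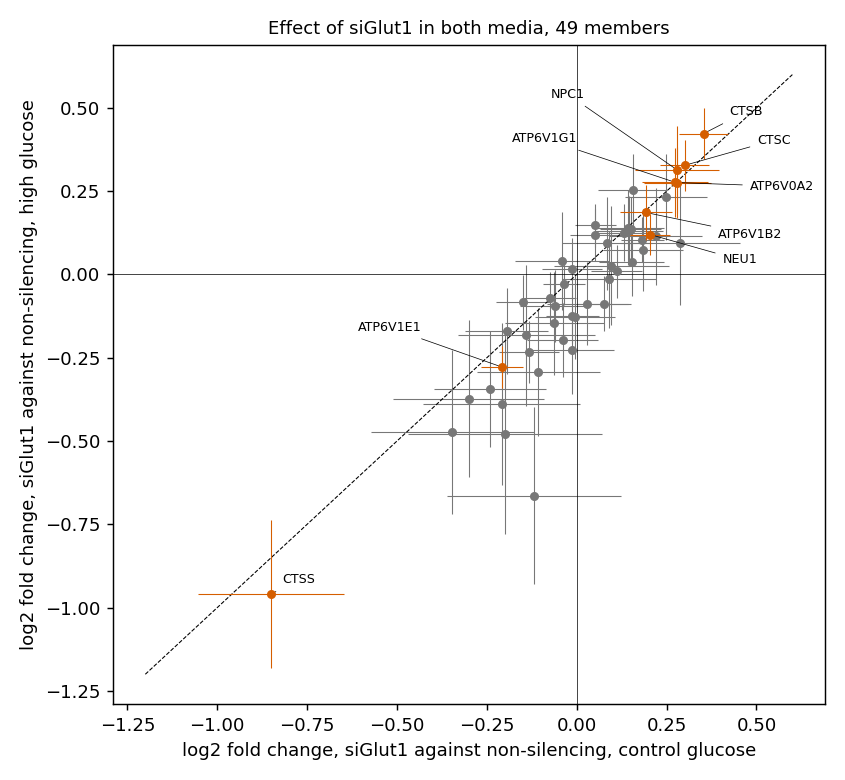
Log2 fold change of siGlut1 against non-silencing siRNA in control (x axis) and high glucose (y axis) for 49 members of at least 1 CPM, with SE bars and the line of equality dashed. The members past the threshold (orange) lie near the line, with CTSS at -0.85 and -0.96 and CTSB at 0.35 and 0.42.

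High glucose moved no member past the threshold. The count was 0 of 52 with non-silencing siRNA (0.0% of all genes), 0 with siGlut1 (0.0140%) and 0 in the average over both siRNAs (0.412%), by edgeR. At an unadjusted p under 0.05 there were 3, 5 and 11 members, 5.77%, 9.62% and 21.2%, against 5.40%, 15.2% and 16.9% of all genes. DESeq2 called 0, 2 and 3 members, against 0.230%, 3.01% and 3.77% of genes. In the average the median log2 fold change was -0.06 for the members and -0.01 for all genes. It was -0.11 for the 32 listed genes, of which 25 were negative, and -0.02 for the V-ATPase genes, of which 11 of 20 were negative. Of all 14334 tested genes 7659 were negative.

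SQSTM1 and ATP6V1A came nearest to the threshold. SQSTM1 stood at 789, 888 and 762 CPM in non-silencing control and at 687 and 649 CPM in high glucose. With siGlut1 the values were 675, 810 and 741 CPM in control against 548, 604 and 554 CPM in high glucose. The media did not overlap within either siRNA. Of all tested genes 17.8% did not overlap with non-silencing siRNA and 22.5% with siGlut1. The average log2 fold change of SQSTM1 was -0.33 (SE 0.06, adjusted p = 0.0527, edgeR). ATP6V1A stood at 126, 130 and 124 CPM in non-silencing control and at 155 and 146 CPM in non-silencing high. With siGlut1 the values were 125, 110 and 108 CPM in control against 152, 142 and 133 CPM in high glucose. Its 5 high-glucose libraries all lay above its 6 control libraries, the 1 member to do so (1.92%, against 0.977% of all genes), with an average of 0.28 (SE 0.06, adjusted p = 0.0562). Both were past the threshold in several other settings, listed with the processing.

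Without both control-glucose libraries numbered 3, the average glucose comparison held 15 of 51 members past the threshold, 29.4% against 18.1% of all genes in that fit. Of these 13 were lower (25.5% against 9.43%) and 2 higher (3.92% against 8.72%). The lower ones were the proteases CTSD, TPP1 and CTSO, the glycosidases GAA, HEXA and MAN2B1, PSAP, the membrane proteins CD63 and LAMP1, the regulators GRN, SQSTM1 and TFEB, and the proteolipid ATP6V0C. The higher ones were ATP6V1A and ATP6V1C1. Both libraries were left out because members stood apart in them, so the members' shares past the threshold follow in part from that choice. CTSD, for example, went from -0.27 (adjusted p = 0.203, edgeR) to -0.38 (adjusted p = 0.00453), and GAA, the acid alpha-glucosidase that degrades glycogen, from -0.33 (0.278) to -0.50 (0.00612).

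CTSD stood at 330, 351 and 251 CPM in non-silencing control 1, 2 and 3 and at 333, 373 and 283 CPM in siGlut1 control, against 248 and 266 CPM with non-silencing siRNA and 290, 258 and 276 CPM with siGlut1 in high glucose. Libraries 1 and 2 of both control groups were above all high-glucose libraries, and library 3 of both was among them. Over the 13 genes the median deviation from the mean of the 4 group means, in log2 CPM, was 0.14 and 0.22 in non-silencing control 1 and 2 and -0.20 in control 3. It was 0.18 and 0.32 in siGlut1 control 1 and 2 and -0.04 in control 3. The high-glucose libraries lay between -0.16 and 0.00. The 13 genes come from the fit without libraries 3, a choice that favours low high-glucose values and also a low library 3. Leaving out non-silencing control 3 alone gave 6 members (11.5%, against 5.86% of genes), and leaving out siGlut1 control 3 alone gave 0 (0.175% of genes). The labels name 2 library kits and tie no library to either, so a part of the kits in this was not tested.

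**Figure D5:**
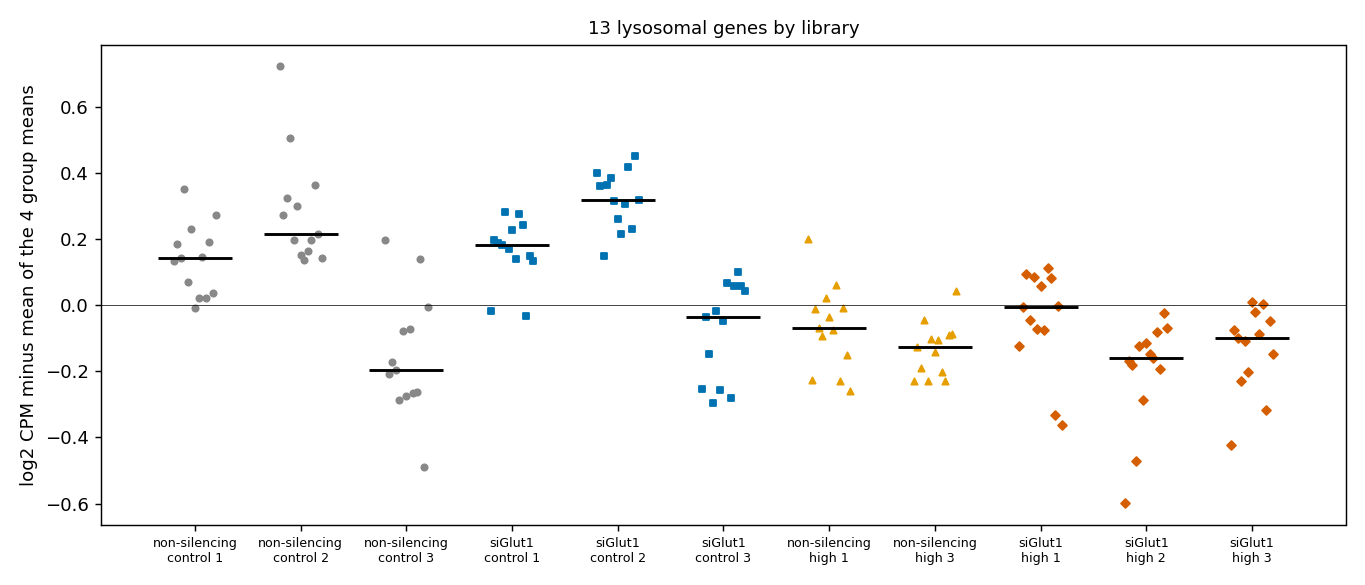
Log2 CPM of 13 members (points) in each of the 11 libraries, minus each gene's mean of the 4 group means, with the median as a line. The genes are those lower in high glucose when both control libraries numbered 3 are left out, so the low position of the high-glucose libraries follows from the choice. The median of control 3 lies below those of control 1 and 2 for both siRNAs, which the same choice also favours.

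The 12 members with CACGTG in their promoter window all had negative average glucose values, from -0.33 to -0.01. Negative values were also found for 36 of all 52 tested members and 7659 of all 14334 tested genes. The median of the 12 was -0.10, against -0.04 for the 24 tested members whose window lacks CACGTG. For siGlut1 the medians were 0.09 and -0.01, with 2 of 12 and 4 of 24 past the threshold in either direction, both near the 14.4% of all tested genes. These are descriptions of sets chosen by sequence, and the difference was not tested.

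Other genes of the lysosome and its control were compared in the same fit. With siGlut1, of 52 further lysosomal genes, 2 rose and 0 fell in control glucose, 1 rose and 0 fell in high glucose, and 8 rose and 5 fell in the average. Of all tested genes 1.70% rose and 1.26% fell in control glucose, 2.46% and 1.65% in high glucose, and 7.93% and 6.49% in the average. LAPTM4B, a late endosomal membrane protein, rose in both media (log2 0.65 and 0.48, adjusted p = 0.000934 and 0.00706, edgeR), from 42.6 to 44.0 CPM in non-silencing control to 65.8 to 70.4 CPM in siGlut1 control. Among those past the threshold in the average, CTSL1, PPT1, LGMN, FUCA2 and CLCN7 rose (0.19 to 0.29), and ACP5, FUCA1, CTBS, GALNS and TPCN1 fell (-1.16 to -0.26).

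Of 22 genes of mTORC1 and the TFEB family, MTOR fell in control glucose (-0.48, adjusted p = 0.0111, edgeR), and in high glucose FNIP2 rose (0.60, adjusted p = 0.0132) and LAMTOR2 fell (-0.47, adjusted p = 0.0329). In the average FNIP2 and FLCN, partners in the complex that acts on Rag GTPases, rose by 0.46 and 0.28, and MTOR, LAMTOR2 and TFE3 fell by 0.32, 0.31 and 0.18. Of 34 autophagy genes 0 passed within either medium and 1, ATG10, fell in the average (-0.42, adjusted p = 0.0153). Of 6 genes that sort hydrolases, M6PR rose in the average (0.18, adjusted p = 0.0195), and of 10 V-ATPase accessory and assembly genes, ATP6AP1 rose (0.23, adjusted p = 0.0493). With siGlut1, 2.96% of all tested genes passed in control glucose, 4.11% in high glucose and 14.4% in the average. Single calls in these short lists therefore describe the gene named and not its list. High glucose moved none of these 5 lists' genes past the threshold in the average by edgeR, with 8 of 52, 2 of 22, 5 of 34, 1 of 6 and 3 of 10 at an unadjusted p under 0.05, against 16.9% of all tested genes.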

How the data were processed

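The deposited table gives, per the file headers, a count and an RPKM per gene and sample with hg19 coordinates. The deposited counts are whole numbers and not normalised, and the RPKM values are the authors' own, used here only to compare levels between genes. The submitters' processing notes name hg19 and DESeq2. For the aligner, counter, strand setting and annotation, the sources used here give no name. No column lacked a sample (0), and 101 entries with repeated names were left out, at most 0.0128% of counts.

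The counts of 11 libraries were fitted in 1 model of the 4 groups with edgeR 4.0.16 in R 4.3.3 (TMM factors 0.975 to 1.03, filterByExpr, 14334 genes tested, no replicate block, 7 residual degrees of freedom). Two-sided quasi-likelihood F tests were adjusted by Benjamini-Hochberg over all tested genes, with a threshold of 0.05 and no fold minimum. SEs were derived from the log2 fold change and its F statistic. The fitting was tested on simulated data. Values per library are CPM on TMM-scaled library sizes. The comparisons were siRNA in each medium, glucose with each siRNA, their interaction, and both averages.

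Named with values are members past the threshold, the 2 highest by RPKM in each role, and the largest siRNA average of each role. SQSTM1, ATP6V1A, ATP6V0D1, the 15 genes of the fit without both libraries numbered 3 and other single members were named after their values were seen. Some genes counted in the lists are not reported by name here. The members and the gene lists were chosen with earlier results of these data known. Alternatives were a replicate block, DESeq2 1.42.0, its size factors in edgeR, 2 filters, fewer or more libraries, removal of a gene-length trend, and each library left out in turn.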

Additional observations from a re-analysis of the deposited data

How the results depend on the processing

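The counts of members past the threshold moved as follows. For siGlut1 in control glucose (3 members) DESeq2 gave 5, a fit of only the groups compared 0 and all 12 columns 5. In high glucose (4 members) the replicate block gave 1 and removal of the gene-length trend 2. For high against control glucose with siGlut1 (0 members) DESeq2 gave 2, and the fit without both control libraries numbered 3 gave 6. In the glucose average (0 members) the replicate block gave 2, DESeq2 3, no filter on low counts 1, all 12 columns 2 and the fit without both libraries numbered 3 gave 15. Leaving out each library in turn gave 0 to 3 members for siGlut1 in control glucose, 0 to 4 in high glucose, 4 to 11 in the average (9 members) and 0 to 6 in the glucose average. The count of 6 came without non-silencing control 3 and the count of 4 without non-silencing high 3. With 5 members, the averaged siRNA count was lowest but for that without non-silencing control 1, non-silencing high 1 or siGlut1 high 2 or 3. The signs of NAGLU in control glucose (0.0139 and 0.0283 without non-silencing control 2 and siGlut1 control 3) and of CTSA in high glucose (-0.0345 without non-silencing high 3) turned, neither past the threshold, within leave-out ranges of -0.2664 to 0.0283 and -0.0345 to 0.1144. The cause of these moves was not tested, apart from the fewer libraries in those fits. In every setting and comparison the median log2 fold change of all genes was at most 0.0216 in absolute value.

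Over all genes, siGlut1 in control glucose called 424 genes, 1050 by DESeq2, 70 with only the groups compared, 824 with all 12 columns and 247 without both libraries numbered 3. In high glucose it called 589, 1318, 1149, 1807 and 1674, and in the average 2066, with 3182 on all 12 columns. The glucose average called 59 genes, 540 by DESeq2, 427 on all 12 columns and 2583 without both libraries numbered 3. Glucose with siGlut1 called 2, then 432, 36 and 735, and with non-silencing siRNA 0, then 33, 11 and 48.

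Replicate numbers were not used as pairs in the main fit. Same-numbered deviations correlated at -0.252 to 0.536, and at 0.0936 to 0.536 within a medium. There non-silencing control 1 correlated best with siGlut1 control 2 (0.148). Non-silencing control 2 and 3 and non-silencing high 1 and 3 correlated best with the siGlut1 library of their own number (0.353, 0.536, 0.233 and 0.192). Spread shared by same-numbered libraries is thus possible, and the main fit does not model it. The replicate block gave 2 members in control glucose and 9 in the siRNA average, where SQSTM1 (adjusted p = 0.0171, edgeR) replaced ATP6V1B2 (0.0631). It lost CTSS in control (0.0504) and high glucose (0.0586), and CTSC (0.0514) and ATP6V1E1 (0.0558) in high glucose. In the siRNA average the calls of NEU1, NPC1, ATP6V1B2, ATP6V1G1 and ATP6V0A2 were lost in 6, 8, 10, 4 and 3 of 11 leave-outs, with adjusted p up to 0.101, 0.161, 0.132, 0.0857 and 0.116. SQSTM1 and ATP6V1A passed the threshold in the glucose average in 5 and 4 of 8 other settings, and in 4 and 3 of 7 without the setting of all 12 columns, which counts the averaged column as a library (adjusted p 0.000536 to 0.250 and 0.000744 to 0.313 over all settings). ATP6V0D2, with 0 counts in 3 libraries, is limited by depth.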
